A study of Caenorhabditis elegans with 20 samples.

Results

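Dauers of 1 strain, with TIR1(F79G) in the intestine, were compared after growth on 5-Ph-IAA and after growth on its ethanol solvent. These 10 libraries, the columns labelled TIR1 with 5-Ph-IAA and TIR1 with no auxin, were taken by label from the 20 libraries of the series. Every animal carried *daf-16(ot853[daf-16::mNG::AID])*, the endogenous gene tagged with mNeonGreen and a degron, and the temperature-sensitive insulin receptor allele *daf-2(e1370)*, under which larvae arrest as dauers at 25 °C. Strain OH17582 also carried *otSi2*, in which the *ges-1* promoter drives TIR1(F79G) in the intestine. The 5-Ph-IAA group (5 libraries) was given 100 µM of the ligand and the no auxin group (5 libraries) 0.2% ethanol, both for 3 days, with about 24000 animals per library, and animals that had not arrested as dauers were picked off the plates. Strain OH14654, which lacks TIR1, was given the same 2 treatments (5 libraries each) and serves below as the measure of the ligand alone. RNA was taken from whole animals, so a difference in an intestinal gene is seen against the RNA of every other tissue, and fewer cells of a type cannot be told apart from less RNA per cell.

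DAF-16 is the only FoxO transcription factor of *C. elegans*. Insulin signalling through DAF-2 keeps it in the cytoplasm, and when signalling is low it enters nuclei and acts on genes of stress resistance, metabolism, immunity and dauer arrest. In the AID2 system, 5-Ph-IAA bridges a degron-tagged protein to TIR1(F79G), which marks it for the proteasome. The comparison therefore asks which transcripts of the whole dauer differ when DAF-16 can be degraded in its intestine, the tissue that digests food, stores fat, makes yolk and secretes insulin-like peptides.

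The targeted gene was measured first. *daf-16* (WBGene00000912, chromosome I, 10750498 to 10776703, plus strand) had normalized counts of 8586, 8872, 9024, 8498 and 8842 in no auxin replicates 1 to 5 and 8231, 8781, 8897, 7998 and 7762 in 5-Ph-IAA replicates 1 to 5. The groups overlapped, and the log2 fold change was −0.07 (standard error, SE, 0.04, limma's adjusted p = 0.184). AID2 removes the protein and leaves the transcript, so this value checks neither the labels nor the depletion, and no protein was measured in these libraries. Positions here and below are from the WBcel235 annotation.

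Between 7401425 and 10209257 reads lay on genes in the no auxin libraries and between 3989669 and 15585703 in the 5-Ph-IAA libraries. The shallowest was 5-Ph-IAA replicate 5, in which 21.4% of the reads were ribosomal RNA against 1.78% to 5.52% in the other 4 libraries of its group. It was also the library with the fewest detected genes (17152, against 21299 to 21662). The table gives reads divided by a size factor per library, called normalized counts here. Fold changes are differences of mean log2(normalized count + 1), which understate the change of genes with few reads, and a gene was called when its adjusted p was under 0.05 with a change of at least 1.5-fold. The labels number the replicates and do not say whether they were grown on separate days, so p-values measure the spread between these samples.

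Of 17090 genes tested, 1130 were called higher with 5-Ph-IAA (6.61%) and 387 lower (2.26%), so that 1517 were called in all (8.88%). Rises were also the larger changes: 307 rises and 27 falls were 4-fold or more, and 86 rises and 7 falls were 8-fold or more. In 749 of the rises and 257 of the falls the 5 libraries of one group did not overlap the 5 of the other, against 12.8% of all genes tested. Genes called higher took 1.67% to 1.88% of the reads in no auxin libraries and 3.61% to 4.69% in 5-Ph-IAA libraries, while genes called lower took 2.10% to 2.39% and 0.848% to 1.0%. The changed genes were thus a small share of the transcriptome in either group, and the median log2 fold change over all genes tested was −0.02. Calls were most frequent among genes with 10 to 100 normalized counts (10.8% higher and 3.40% lower) and least frequent above 1000 (2.74% and 1.29%). By kind of gene, 7.22% of 15008 protein-coding genes were called higher and 2.28% lower, and none of the 14 mitochondrially encoded genes was called.

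**Figure D1:**
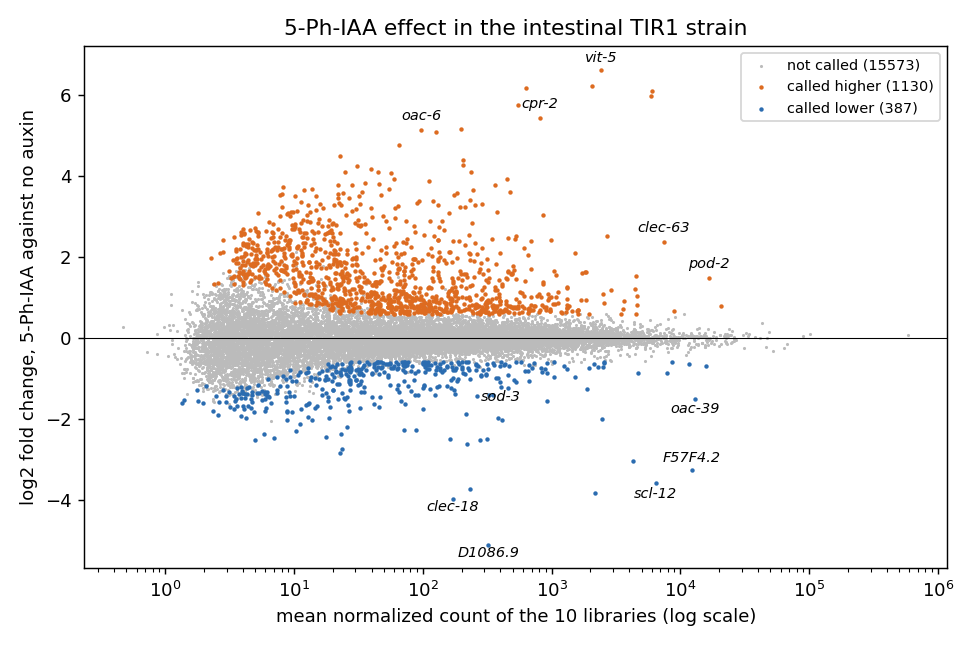
Log2 fold change of 5-Ph-IAA against no auxin in the TIR1 strain (vertical axis) against the mean normalized count of the 10 libraries (horizontal axis, log scale) for the 17090 genes tested, with genes called higher in orange and genes called lower in blue. The leading rises reach a log2 fold change of 6.63 (*vit-5*) and the leading falls −5.11 (*D1086.9*). *scl-12*, *F57F4.2* and *oac-39* are falls at high counts.

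Many transcripts of oocytes, yolk and the adult cuticle were called higher and also varied between libraries of 1 group, so they are given before the other genes. The 15 oocyte and eggshell markers summed to 2931, 3006, 2665, 2742 and 4475 normalized counts in no auxin replicates 1 to 5 and to 6592, 4401, 6954, 10598 and 10536 in 5-Ph-IAA replicates 1 to 5. The groups overlapped at no auxin replicate 5 and 5-Ph-IAA replicate 2, and 5-Ph-IAA replicates 4 and 5 were the highest. Of the 15, 13 rose, with a median log2 fold change of 1.23, and *oma-1* (0.56) and *pqn-74* (−0.11) were not called.

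The 6 vitellogenins, yolk proteins that the adult hermaphrodite intestine makes for oocytes, all rose. Their summed counts were 870, 1358, 1, 204 and 8287 in no auxin replicates 1 to 5 and 24053, 8617, 26548, 53264 and 52694 in 5-Ph-IAA replicates 1 to 5, so the groups were separate by a small margin between no auxin replicate 5 and 5-Ph-IAA replicate 2. The ratio of the group means was 15.4, and 54.3 without no auxin replicate 5, an alternative added after the data were seen. *vit-5* (WBGene00006929, chromosome X, 3403471 to 3408603) had the largest fitted change of all named genes, a log2 fold change of 6.63 with a standard error of 1.61 (adjusted p = 0.00393 from limma). With 1 library left out it lay between 5.32 (no auxin replicate 3) and 7.78 (no auxin replicate 5), and edgeR gave 4.27. In the strain without TIR1 the yolk sum spanned 87.5 to 14135 in solvent and 3.8 to 1854 with the ligand, so yolk transcripts also varied widely between libraries there.

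Cuticle collagens behaved likewise. Of 156 tested, 64 rose and 4 fell, with a median log2 fold change of 0.73. *col-19*, a collagen of the adult cuticle, had a mean of 65.2 and 404 normalized counts and rose by 4.1 on the log2 scale (SE 1.05). *bli-1*, which encodes a strut collagen of the adult cuticle, had 0.936, 3.81, 0.991, 1.27 and 4.58 normalized counts without auxin and 66.7, 85.6, 38.3, 69.7 and 34.9 with 5-Ph-IAA. All of its no auxin libraries lay below all of its 5-Ph-IAA libraries, while *col-19* reached 250 in no auxin replicate 5 and 172 in 5-Ph-IAA replicate 2. Both genes, like *col-119* and *col-143*, overlap a gene on the opposite strand, and since the sources used here give no strand setting for the counting, their values are uncertain. The same holds for 218 of the 1130 rises and 69 of the 387 falls, below for *perm-2*, *nos-2*, *asp-2*, *lys-8*, *pho-11*, *pals-24*, *hpo-8*, *dhs-28*, *haf-4* and *col-41* among others. Over all collagens the summed counts overlapped, at 22668 to 34886 without auxin and 28561 to 45063 with 5-Ph-IAA.

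Other adult or embryonic transcripts moved with them. *perm-2*, an eggshell gene, rose by a log2 fold change of 5.09 (SE 1.0), *nos-2*, a nanos homolog of the early embryo, by 3.47 and *ule-4*, a uterine lumen gene, by 3.94. Of 14 germline stem cell and P granule genes, *nos-2* and *mex-5* rose and 12 were not called, *glp-1* among them at 0.02. Of 32 sperm genes 6 rose, each to a mean of at most 11.3 normalized counts.

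A further fit, added once the values had been seen, took the log2 sum of the oocyte and eggshell markers as covariate and called 473 genes higher and 208 lower. Of the genes called without the covariate, 390 of 1130 rises and 149 of 387 falls were shared with it. The covariate itself differs between the groups and costs a degree of freedom, so a lost call does not assign a gene to the markers. The covariate is the sum of the oocyte and eggshell markers themselves, so the loss of all 13 of their calls was fixed in advance and tests nothing. None of the 6 vitellogenins or 6 hypodermal markers called in the first fit was called with the covariate, and 1 of the 64 collagen rises was. Values with this covariate stand beside many of the gene groups below, and the part that animals past the dauer stage, or a rise of these transcripts within dauers, has in any result was not tested.

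**Figure D2:**
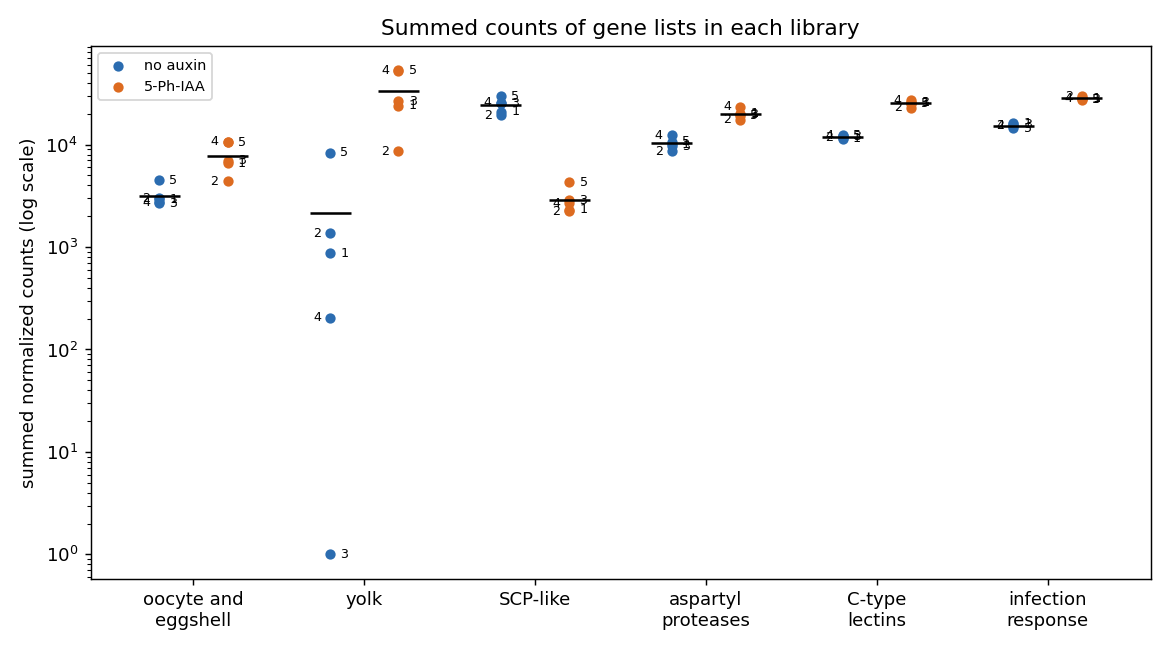
Summed normalized counts (vertical axis, log scale) of 6 gene lists in each library of the TIR1 strain, no auxin in blue and 5-Ph-IAA in orange, with the replicate number printed beside each point and the group mean as a bar. Yolk sums spread widely within each group, and oocyte and yolk sums come together at no auxin replicate 5 and 5-Ph-IAA replicate 2. The sums of SCP-like genes, aspartyl proteases, C-type lectins and infection response genes form 2 groups with a gap between them.

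Secreted SCP-like proteins gave the deepest falls among abundant transcripts. The scl family encodes small secreted proteins with the SCP or CAP domain, and together with the vap genes it summed to 20804, 19291, 25363, 25601 and 29765 normalized counts without auxin. With 5-Ph-IAA the sums were 2300, 2238, 2869, 2680 and 4302, and the no auxin mean was 8.4 times the 5-Ph-IAA mean. Every no auxin library lay above every 5-Ph-IAA library.

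Within the family the fall belonged to 5 of the 16 members tested. *scl-12* (WBGene00019178, chromosome V, 3812591 to 3813437) had 10535, 10634, 12547, 11271 and 14149 counts without auxin and 671, 875, 1140, 780 and 1615 with 5-Ph-IAA. Its log2 fold change was −3.60 (SE 0.15, limma's adjusted p = 2.27e-15). Its neighbour *scl-13*, on the opposite strand, went from 4036 ± 1050 to 304 ± 171 (SD, n = 5), a log2 fold change of −3.84. *scl-11*, on chromosome IV, went from 7614 ± 1960 to 930 ± 326 (SD, n = 5), a log2 fold change of −3.05. *scl-20* (−2.27) and *scl-21* (−1.76) fell from lower levels. In contrast *scl-5* rose from 36.8 to 97.1, *vap-1* by 1.33 on the log2 scale and *scl-24* from 87.0 to 138, so that the family's median log2 fold change was −0.40. With the oocyte marker covariate the 5 falls were called again, with *scl-12* at −3.94.

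**Figure D3:**
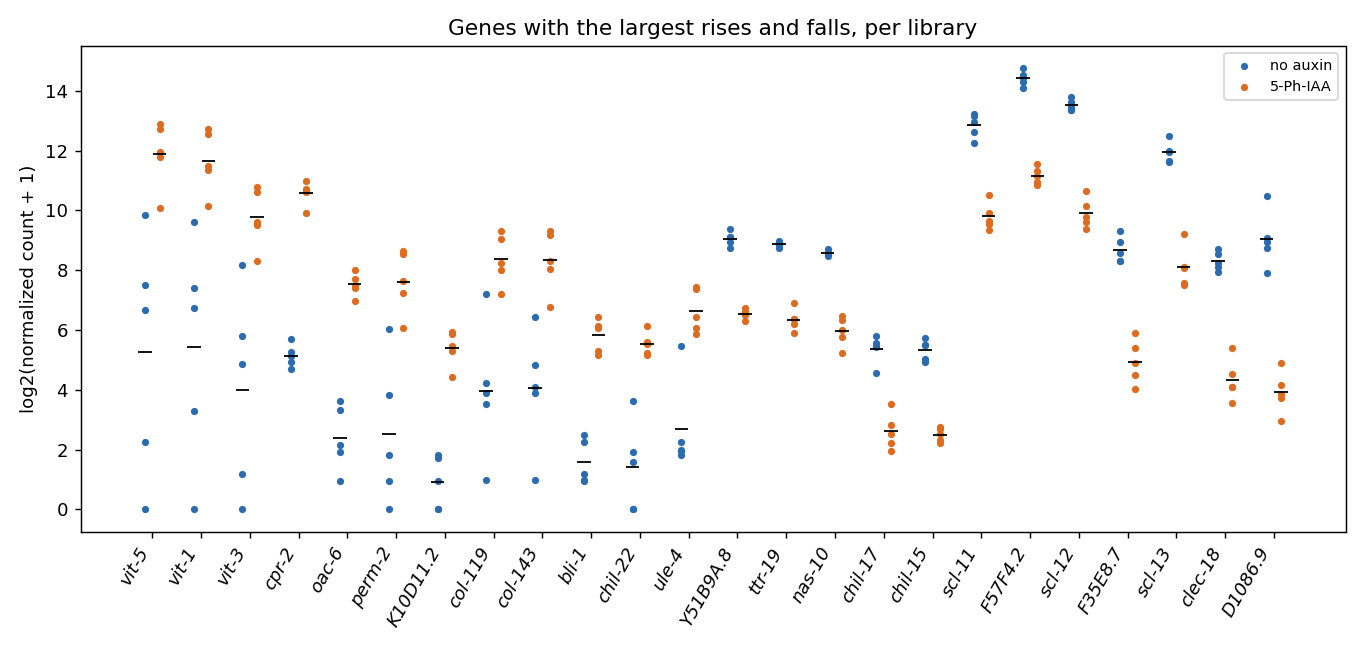
Normalized counts (vertical axis, log2(count + 1) scale) of 12 genes with the largest rises and 12 with the largest falls among genes called without overlap between groups, in the no auxin (blue) and 5-Ph-IAA (orange) libraries, 5 each, with group means as bars. Falls such as *scl-12* and *F57F4.2* and the rise of *cpr-2* show little spread within groups, while the no auxin libraries of *oac-6* and *chil-22*, at few counts, and those of the *vit* genes, *perm-2*, *col-119*, *col-143* and *ule-4* spread over several log2 units.

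The other leading falls were mostly genes of no stated role or of small secreted protein families. *F57F4.2* (WBGene00019016, chromosome V, 6389039 to 6389734), a protein-coding gene known here only by its clone name, lost the most counts of any called gene. It had 20006, 22206, 23703, 17545 and 27872 counts without auxin and 1966, 2272, 2546, 1840 and 3027 with 5-Ph-IAA, a log2 fold change of −3.26 (SE 0.12, limma's adjusted p = 5.58e-16). The lowest no auxin library was far above the highest 5-Ph-IAA library.

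*D1086.9* on chromosome V had the largest fitted fall. Its counts were 430, 241, 538, 488 and 1441 without auxin and 16.9, 13.5, 12.1, 6.83 and 29.1 with 5-Ph-IAA, a log2 fold change of −5.11 (SE 0.32). *F35E8.7* fell from 428 ± 137 to 33.1 ± 17.1 (SD, n = 5), and *gst-38*, a glutathione S-transferase gene that adjoins it on the opposite strand, fell less, from 131 ± 13.7 to 87.2 ± 14.3. *clec-18*, a C-type lectin gene, fell from 323 ± 73.8 to 21.2 ± 11.6, against the direction of most of its family. *ttr-19*, a transthyretin-related gene, fell from 470 ± 30.8 to 82.8 ± 22.4, and *nas-10*, an astacin metalloprotease gene, from 381 ± 25.8 to 64 ± 20.6. *nas-10* overlaps a gene on the opposite strand and is uncertain for the reason given above. All 12 of the largest falls were called again with the oocyte marker covariate, as were 4 of the 12 largest rises (*K10D11.2*, *chil-22*, *cpr-2* and *oac-6*). Those rises include *perm-2*, a marker summed in the covariate, so its loss of call was fixed in advance.

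Chitinase-like genes split. *chil-15* fell from 40.6 ± 9.70 to 4.74 ± 0.916 (SD, n = 5) and *chil-17* from 41.9 ± 11.7 to 5.57 ± 2.97, while *chil-22*, in the same stretch of chromosome II, rose from 3.25 ± 4.75 to 46.8 ± 13.9 with a log2 fold change of 4.11. No 5-Ph-IAA library of these 3 genes overlapped a no auxin library. *Y51B9A.8*, also nearby, fell from 538 ± 87.3 to 92.8 ± 9.59.

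O-acyltransferase genes of the oac family had summed counts 2.08 times as high without auxin as with 5-Ph-IAA, mainly through *oac-39*. *oac-39* (WBGene00006419, chromosome V, 246608 to 251752) had 19749, 18488, 20236, 18596 and 19936 counts without auxin and 6174, 7161, 7404, 5822 and 7579 with 5-Ph-IAA, a log2 fold change of −1.51 (SE 0.05, limma's adjusted p = 4.56e-16). The spread within each group was small against the drop. *oac-55* fell from 609 ± 35.7 to 155 ± 22.8 (SD, n = 5), and *oac-48* and *oac-37* also fell. Yet 9 of the 31 members tested rose, led by *oac-6*, which went from 5.51 ± 4.45 to 189 ± 49.9, and *oac-14*, which went from 226 ± 59.7 to 1159 ± 147. The family's median log2 fold change was 0.39, and 5 of the 9 rises and 2 of the 4 falls were called again with the covariate.

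Lysosomal and digestive proteases rose. Of 12 cysteine cathepsin genes 8 rose, with a median log2 fold change of 1.19, and of 14 aspartyl protease genes 8 rose and 2 fell, with a median of 1.61. *cpr-2* (WBGene00000782, chromosome V, 16532936 to 16534100), a cathepsin B-like gene, had 33.7, 24.7, 37.6, 50.9 and 29.8 counts without auxin. With 5-Ph-IAA it had 1650, 968, 1589, 2043 and 1674, a log2 fold change of 5.45 (SE 0.31, limma's adjusted p = 1.10e-12). The lowest 5-Ph-IAA library was thus far above the highest no auxin library, and with the oocyte marker covariate the log2 fold change was 5.37.

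*cpr-5* rose from 59.5 ± 19.7 to 422 ± 61.8 (SD, n = 5), and *cpr-1*, *cpr-3* and *cpr-4* rose between 1.45 and 1.60 on the log2 scale. *cpl-1*, the cathepsin L gene, was not called (0.11), and *cpr-6* passed the adjusted p (2.20e-06 from limma) at −0.34, short of 1.5-fold. Among aspartyl proteases *asp-6*, which had 759, 558, 575, 1396 and 828 counts without auxin and 4743, 3844, 4449, 5565 and 4046 with 5-Ph-IAA, rose by a log2 fold change of 2.53. *asp-2* (2.42), *asp-8* (2.63), *asp-12* (2.17) and *asp-17* (3.74) rose as well, the last from at most 2 reads in any no auxin library, so that its fold depends on the added count of 1. *asp-9* (−0.78) and *asp-18* (−1.26) fell, and *asp-4*, a cathepsin D-like gene, was at 3329 ± 282 and 3319 ± 197 (SD, n = 5). The summed aspartyl protease counts were 8580 to 12366 without auxin and 17431 to 23382 with 5-Ph-IAA. Of the rises, 8 of 8 cathepsin and 7 of 8 aspartyl protease genes were called again with the covariate. *ctsa-2*, a cathepsin A-like gene on chromosome X, chosen after its values were seen, went from 2326 ± 174 to 6695 ± 650.

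Among lysozymes *lys-1* rose from 341 ± 47.0 to 910 ± 152 (SD, n = 5), *lys-2* and *lys-8* rose by 1.48 and 0.70 on the log2 scale and *ilys-5* by 2.24, while *ilys-3*, an invertebrate-type lysozyme of the gut, fell from 63.5 ± 15.5 to 20.1 ± 6.94. *lys-7*, often used as a DAF-16 target, was not called (0.07). Saposin-like genes, small proteins with pore-forming or lipid-binding relatives, also split: of 26 tested 7 rose and 2 fell. *spp-11* had 3631, 3776, 4097, 3738 and 4516 counts without auxin and 879, 954, 1048, 850 and 1219 with 5-Ph-IAA, a log2 fold change of −2.0, and *spp-29* fell by 1.19 on the log2 scale. *spp-14* rose from 250 ± 51.3 to 735 ± 60.2 and *spp-3* from 109 to 297. *nuc-1*, the lysosomal DNase II, rose by 0.66, and the acid phosphatase gene *pho-11* by 1.14.

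Of 107 C-type lectin genes 42 rose and 4 fell, with a median log2 fold change of 0.57, and the summed counts went from between 11372 and 12294 to between 22940 and 27003. The largest part of that rise was *clec-63* (WBGene00009394, chromosome II, 12895638 to 12897446), chosen after its values were seen as the lectin gene with the largest change in counts. It had 2298, 2038, 2348, 2930 and 2391 counts without auxin and 13232, 10834, 12607, 13674 and 11735 with 5-Ph-IAA, a log2 fold change of 2.38 (SE 0.07, limma's adjusted p = 2.23e-17). Each 5-Ph-IAA library exceeded every no auxin library several-fold. The largest rises by fold were in genes of few reads, *clec-4* (2.44 to 41.5), *clec-7* (3.13 to 40.4), *clec-28* (0.452 to 15.2) and *clec-206* (1.61 to 24.1). In *clec-28* the no auxin libraries held at most 1 read and in *clec-206* at most 3, so their folds depend on the added count of 1. With the covariate 22 of the 42 rises and 2 of the 4 falls were called again.

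Infection response genes, a set defined by induction on pathogens, rose in 6 of 7 cases. *irg-5*, used as a readout of immune activation in the intestine, had 192, 147, 106, 319 and 174 counts without auxin and 1247, 1182, 1022, 2179 and 1985 with 5-Ph-IAA, a log2 fold change of 3.05 (SE 0.21). It also rose with the ligand in the strain without TIR1 (1.43), and the difference of the 2 effects was 1.61 (adjusted p = 0.000563 from limma). *irg-4* (33.8 to 250) and *irg-8* (57.3 to 288) followed. *irg-7*, chosen after its values were seen for its count, was already abundant at 15003 ± 666 and reached 26073 ± 1190 (SD, n = 5), a log2 fold change of 0.80. *irg-2* was not called (0.00), and 4 of the 6 rises were called again with the covariate. Of 12 genes listed for the p38 MAPK pathway of pathogen defence only *elt-2* (0.63) was called, a share of 8.33% near the 6.61% of all genes tested. *elt-2* encodes a GATA factor and is not a kinase of the cascade. The cascade genes *tir-1* (0.11), *nsy-1* (−0.09), *sek-1* (−0.21) and *pmk-1* (−0.15) were not called.

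Antimicrobial peptide genes of the hypodermis had calls in the other direction. Of 41 nlp, cnc, fip, fipr and abf genes tested, 8 fell (19.5%, against 2.26% of all genes tested) and 33 were not called. The list's median log2 fold change was −0.20 with TIR1 and −0.16 for the ligand without TIR1. The difference of the 2 effects was called for 3 of the genes. Of the 8 falls, 2 were called again with the covariate. Of 11 hypodermis markers 6 rose in the same libraries, and their part in these falls was not tested. *cnc-6* fell from 689 to 340 (log2 fold change −1.05) and *fipr-7* from 88.4 to 39.1 (−1.16), and *fipr-4*, *fipr-6* and *fipr-7*, which adjoin *ttr-19* on chromosome V, were among the 8. The difference of effects was called for *cnc-6* and *fipr-7*. It was not called for *fipr-4* (adjusted p = 0.0581 from limma) or *fipr-6* (adjusted p = 0.438 from limma). Of 31 pals genes, a family that answers to intracellular pathogens, *pals-6*, *pals-14*, *pals-23* and *pals-24* rose (1.03 to 1.95) and *pals-17*, *pals-29* and *pals-33* fell (−0.90 to −0.73). With the covariate the 4 rises were called again and none of the 3 falls.

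**Figure D4:**
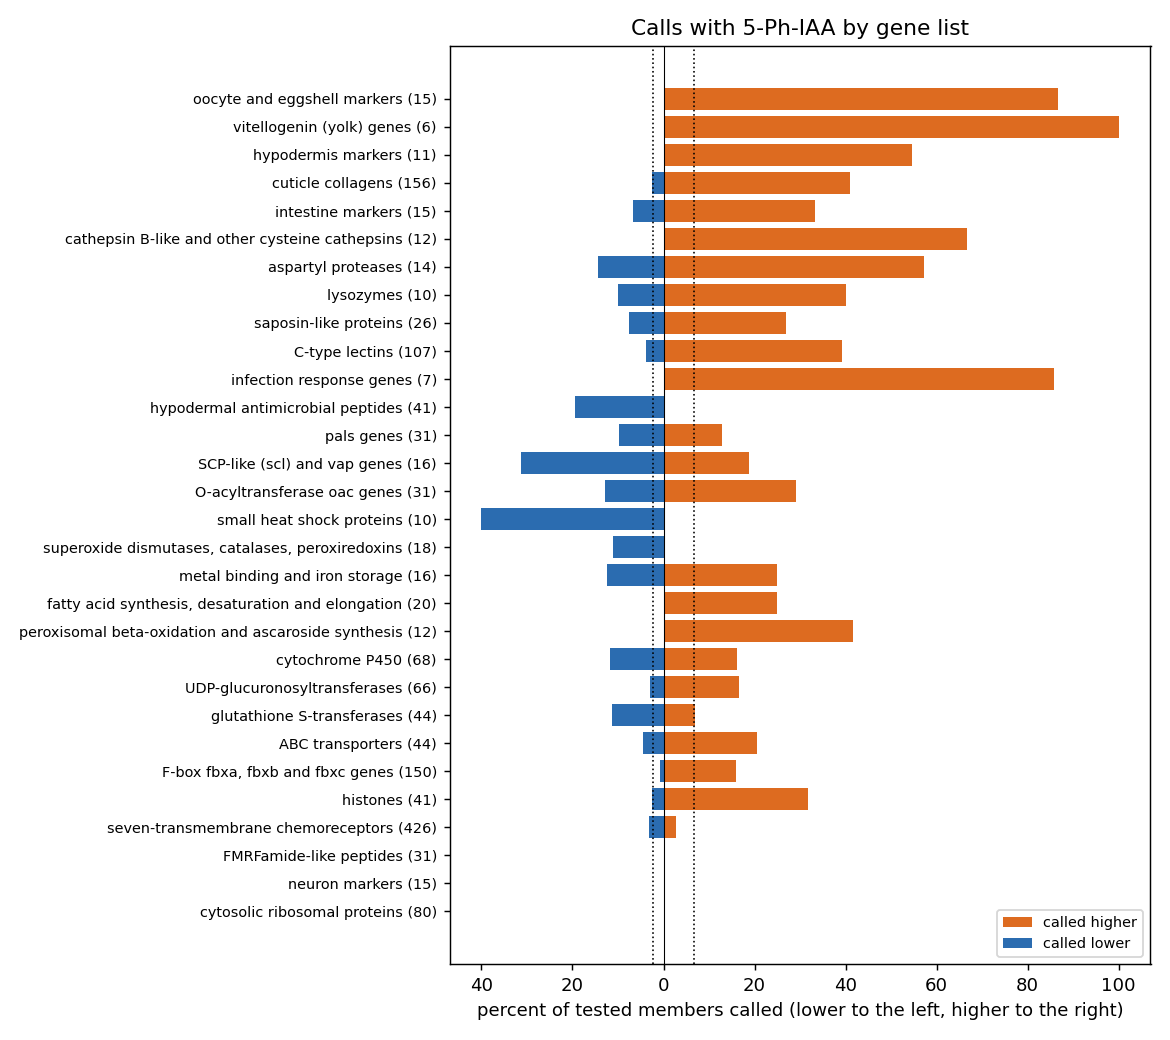
Share of genes called higher (orange, to the right) and lower (blue, to the left) with 5-Ph-IAA, in percent of the tested members of 30 gene lists, with the number tested beside each name. The dotted lines mark the percents over all genes tested, 6.61% higher and 2.26% lower. Digestive, immune, yolk and oocyte lists extend to the right, the SCP-like, small heat shock and superoxide dismutase lists to the left, and the neuron marker, FMRFamide-like peptide and ribosomal protein lists have no calls.

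Several genes known as DAF-16 targets from *daf-2* mutants fell. *sod-3*, a mitochondrial manganese superoxide dismutase and a standard DAF-16 reporter, had 605, 455, 516, 569 and 694 counts without auxin and 215, 218, 222, 247 and 311 with 5-Ph-IAA. Its log2 fold change was −1.22 (SE 0.10, limma's adjusted p = 3.71e-10), without overlap, though it overlaps genes on the opposite strand. *sod-5*, its copper-zinc relative, fell by 1.67 with overlapping groups. *mtl-1*, a metallothionein, went from 3078 ± 199 to 2042 ± 190 (SD, n = 5), and *ftn-1*, an intestinal ferritin, fell by 0.70 on the log2 scale, also without overlap.

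Small heat shock proteins followed in 4 of 10 cases. *hsp-12.6* fell from 371 ± 39.8 to 216 ± 54.4 (SD, n = 5), *hsp-12.3* from 117 ± 18.4 to 65.6 ± 9.53, and *hsp-16.2* and *hsp-16.41* also fell. For *hsp-16.41* the ligand effect without TIR1 was −0.39 (not called), and the difference of its 2 effects was −0.22 (adjusted p = 0.570 from limma). *mtl-1*, *hsp-16.41* and *atf-6* (below) lie near the 1.5-fold limit and dropped under it when single libraries of either group were left out, *mtl-1* to −0.55 at the least. Of the 18 dismutase, catalase and peroxiredoxin genes listed the other 16 were not called, *sod-1* (−0.11), *sod-2* (−0.01) and *prdx-2* (0.45) among them. In the unfolded protein response *atf-6* alone was called (−0.60), and none of 18 large chaperone genes was called by limma, edgeR or DESeq2, with 5 of 18 at an unadjusted p under 0.05. With the covariate *sod-3*, *sod-5*, *hsp-12.3*, *hsp-12.6* and *atf-6* were called again and *mtl-1*, *ftn-1*, *hsp-16.2* and *hsp-16.41* were not.

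Other genes linked to DAF-16 rose. The paper divides DAF-16 targets into class I, which the factor raises, and class II, which it lowers. It reports class II targets to be enriched among genes higher after depletion, so a rise is not counted here as an exception. The dod genes, named for being downstream of DAF-16, rose in 3 of 8 cases, and their class was not looked up. *dod-19* had 156, 109, 135, 249 and 180 counts without auxin and 967, 821, 812, 954 and 809 with 5-Ph-IAA, a log2 fold change of 2.44 (SE 0.20). *dod-17* went from 5.30 ± 1.4 to 55.3 ± 8.44 (SD, n = 5), and *dod-23* rose from at most 2 reads in any no auxin library. Metal-handling genes split likewise: *mtl-2*, the second metallothionein, rose from 23.3 ± 8.18 to 99.8 ± 12.4 while *mtl-1* fell. *cdr-1* (1.74), the zinc transporter gene *cdf-2* (0.73) and the divalent metal transporter gene *smf-3* (0.73) rose, but none of the 6 metal genes called in this list was called with the covariate. Of these, *mtl-1* (−0.48), *ftn-1* (−0.55) and *cdf-2* (0.52) still passed the adjusted p there and were short of 1.5-fold, while *cdr-1* (1.66), *mtl-2* (1.18) and *smf-3* (0.61) missed the adjusted p. For *cdr-1* the ligand effect without TIR1 was 1.41 (not called, adjusted p = 0.213 from limma). The difference of its 2 effects was 0.33 (adjusted p = 0.744 from limma), so its rise was not told apart from that of the ligand alone.

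Fat synthesis was led by 1 very abundant transcript. *pod-2* (WBGene00004076, chromosome II, 1136785 to 1152705), which encodes acetyl-CoA carboxylase, the enzyme that commits acetyl-CoA to fatty acids, had 9325, 7654, 9298, 9535 and 8648 counts without auxin. With 5-Ph-IAA it had 24485, 23875, 27331, 24252 and 23036, a log2 fold change of 1.47 (SE 0.06, limma's adjusted p = 1.86e-15). It gained the most counts of any called gene, and its groups were far apart, although it overlaps a gene on the opposite strand. The next enzyme, the fatty acid synthase gene *fasn-1*, was at 6660 ± 635 and 6527 ± 456 (SD, n = 5) and was not called.

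Of 20 genes of fatty acid synthesis, desaturation and elongation 5 rose and none fell, and the summed counts went from between 51800 and 60977 to between 80081 and 88349. *fat-6*, a stearoyl-CoA desaturase gene, rose from 993 ± 161 to 1732 ± 326 (SD, n = 5), and its paralog *fat-7* rose from at most 2 reads per no auxin library, so that its fold (2.82) depends on the added count of 1. The elongase gene *elo-2* (0.74) and *hpo-8* (0.67) also rose. *fat-2*, a delta-12 desaturase gene, lay just short of 1.5-fold at 0.58, and *fat-1* was at 0.21. Of the 5 rises, 4 were called again with the covariate.

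Fat breakdown moved in part. Of 12 genes of peroxisomal beta-oxidation, the pathway that also shortens the side chains of ascaroside pheromones, 5 rose, among them *dhs-28* (0.64) and *acox-1.3* (2.22, from at most 3 reads in a no auxin library, so that this fold too depends on the added count). *daf-22*, the last enzyme of that pathway, was not called (0.41). The lipase gene *lipl-5* rose from 245 ± 45.0 to 779 ± 110 (SD, n = 5) and *lipl-6* from 23 ± 6.92 to 75.9 ± 7.74, while *lips-12* fell from 22.4 ± 8.68 to 4.95 ± 2.80. *cpt-3*, a carnitine palmitoyltransferase gene, rose from 101 ± 43.9 to 479 ± 241. Of the lipase list 3 genes rose and 3 fell, and the 3 rises and none of the falls were called again with the covariate, as were 3 of the 5 peroxisomal rises. *icl-1*, the glyoxylate cycle gene, was abundant, with means of 37339 and 48207, and was not called (0.37).

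In phospholipid and sulphur amino acid metabolism *pmt-1*, a phosphoethanolamine methyltransferase gene of phosphatidylcholine synthesis, had 2804, 2417, 2741, 2919 and 2544 counts without auxin and 6389, 6101, 6505, 6344 and 5486 with 5-Ph-IAA. The groups were separate, with a log2 fold change of 1.20 (SE 0.05). *cth-1*, a cystathionine gamma-lyase gene, rose from 214 ± 28.6 to 572 ± 50.5 (SD, n = 5). *sams-1*, which makes the methyl donor for *pmt-1*, was not called (0.17). *pyr-1*, the multifunctional enzyme that begins pyrimidine synthesis, was chosen after its values were seen for its loss of counts and fell from 14188 ± 1330 to 9009 ± 621.

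Detoxification genes changed in both directions. Of 68 cytochrome P450 genes 11 rose and 8 fell, of 66 UDP-glucuronosyltransferase genes 11 rose and 2 fell, of 44 glutathione S-transferase genes 3 rose and 5 fell, and of 44 ABC transporter genes 9 rose and 2 fell. For glutathione S-transferases these were 6.82% and 11.4%, against 6.61% and 2.26% of all genes tested, so the rises were near the share over all genes. Called again with the covariate were 7 of the 11 rises and 3 of the 8 falls of P450 genes, 8 of 11 and 2 of 2 for UDP-glucuronosyltransferases, none of 3 and 1 of 5 for glutathione S-transferases, and 7 of 9 and none of 2 for ABC transporters. *ugt-44* rose from 9.80 ± 3.15 to 62.4 ± 8.0 (SD, n = 5), and *ugt-27* fell from 513 ± 41.4 to 193 ± 32.1. The ABC transporter gene *haf-9*, which acts in the lysosome-related gut granules, had 164, 175, 171, 153 and 148 counts without auxin and 580, 553, 549, 650 and 547 with 5-Ph-IAA, a log2 fold change of 1.82 (SE 0.07, limma's adjusted p = 1.86e-15). Its groups were tight and separate, and its partner *haf-4* rose less (0.74). *pgp-1*, a P-glycoprotein gene of the intestine, rose by 1.92 and *pmp-1* by 1.93.

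The cyp-35A genes, which foreign compounds induce, have to be read beside the ligand alone. *cyp-35A1* went from 1.83 ± 0.723 to 18.5 ± 6.99 (SD, n = 5), with at most 3 reads in a no auxin library, so that its log2 fold change of 2.74 depends on the added count of 1. In the strain without TIR1 it rose by 1.80 with the ligand, and the difference of the 2 effects was 0.94 (adjusted p = 0.242 from limma). *cyp-35A5* was at 2.39 with TIR1 and 1.5 without, with a difference of 0.89 (adjusted p = 0.401 from limma), and the value without TIR1 was not called (adjusted p = 0.349 from limma). *cyp-35A3* rose by 1.88 with TIR1 and was at 0.26 without (not called, adjusted p = 0.9997 from limma), with a difference of 1.62 that was not called either (adjusted p = 0.123 from limma).

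Intestinal markers were present and on balance higher. Their summed counts were between 24502 and 25780 without auxin and between 31469 and 32752 with 5-Ph-IAA. Of 15, 5 rose and 1 fell, with a median log2 fold change of 0.45, and 3 of the 5 rises and the fall were called again with the covariate. *act-5*, the actin of the intestinal brush border, had 1793, 1668, 1744, 2071 and 1748 counts without auxin and 3100, 3317, 3324, 3522 and 3111 with 5-Ph-IAA, and rose by 0.86 (SE 0.05). *pept-1*, the peptide transporter gene, rose by 0.78, *asp-1* by 1.63, and the GATA factor gene *elt-2* by 0.63 with overlapping groups. *ges-1*, the gene whose promoter drives TIR1 here, rose from 337 ± 20.9 to 584 ± 54.4 (SD, n = 5). *vha-6*, the apical V-ATPase subunit gene, was at 0.45, and 17 of the 21 V-ATPase genes passed the adjusted p upwards with none at 1.5-fold, so none was called.

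Of the insulin signalling genes 1 was called. *daf-2* (−0.01) and *age-1* (−0.02) were not called and *akt-1* passed the adjusted p at −0.36, short of 1.5-fold. *sgk-1*, a kinase of the pathway, had 201, 193, 219, 230 and 250 counts without auxin and 395, 374, 409, 449 and 384 with 5-Ph-IAA. It rose without overlap by 0.88 (SE 0.08, limma's adjusted p = 1.70e-09), and was the only 1 of 13 genes from receptor to DAF-16 that was called. That share, 7.69%, is near the 6.61% of all genes tested that were called higher.

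Among 29 insulin-like peptide genes *ins-7* and *ins-33* rose, a share of 6.90% near the 6.61% of all genes tested. *ins-7*, an agonist of DAF-2 expressed in the intestine, had 0, 0, 0, 1.27 and 4.58 counts without auxin and 11.3, 12.2, 10.1, 10.2 and 2.91 with 5-Ph-IAA, a log2 fold change of 2.52 (SE 0.55). The groups overlapped at no auxin replicate 5 and 5-Ph-IAA replicate 5, and so few reads leave the level poorly measured. *ins-33* went from 15.1 ± 4.18 to 34.9 ± 16 (SD, n = 5), also with overlap. Its ligand effect without TIR1 was 0.03, and the difference of its 2 effects, 1.04, was not called (adjusted p = 0.153 from limma). *ins-1* (−0.52), *ins-18* (−0.40), *ins-24* (−0.07), *ins-35* (−0.48) and *daf-28* (0.12) were not called. With the covariate neither rise was called, at log2 fold changes of 2.80 for *ins-7* (limma's adjusted p = 0.0857) and 1.41 for *ins-33* (limma's adjusted p = 0.146).

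Genes of dense core vesicle release from the intestine rose in 2 of 10 cases. *aex-1*, a Munc13-like gene, had 59.9, 36.2, 45.6, 22.9 and 35.5 counts without auxin and 133, 131, 124, 156 and 99.0 with 5-Ph-IAA, a separate rise of 1.71 (SE 0.19). *aex-4*, a SNAP25-type SNARE gene that overlaps a gene on the opposite strand, rose from 5.12 ± 2.25 to 21.2 ± 7.20 (SD, n = 5). The proprotein convertase gene *aex-5* (0.10) and the peptide gene *nlp-40* (0.35) were not called.

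Hormone and receptor genes gave single calls. *daf-9*, the cytochrome P450 that completes dafachronic acid, rose from 364 ± 17.3 to 567 ± 31.3 (SD, n = 5), and its receptor gene *daf-12* passed the adjusted p at −0.41, short of 1.5-fold. Of 213 nuclear hormone receptor genes 8 rose and 3 fell (3.76% and 1.41%), below the 6.61% and 2.26% of all genes tested. *nhr-80*, a regulator of fatty acid desaturases, rose from 92.6 ± 9.79 to 172 ± 15.5, and *nhr-8*, a relative of *daf-12*, rose by 0.98 with a gene on its opposite strand. Of 426 chemoreceptor genes 12 rose and 14 fell (2.82% and 3.29%), the rises below and the falls near those shares of all genes. *str-7* rose from 59.2 ± 4.05 to 264 ± 42.9 without overlap, while edgeR called 7 of that family lower.

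FMRFamide-like peptide and neuron marker genes were not called, and those that passed the adjusted p were lower. None of the 31 FMRFamide-like peptide genes tested was called by limma, edgeR or DESeq2, yet 20 had an unadjusted p under 0.05 and 16 passed the adjusted p, each of them lower with 5-Ph-IAA. Their summed counts were between 12026 and 13212 without auxin and between 10434 and 11343 with 5-Ph-IAA. Of 15 neuron markers 7 passed the adjusted p, all lower, and the marker sums were between 33252 and 35351 and between 30496 and 32139. In all, 19 of 73 lists held no call. They contain 558 genes, of which 198 had an unadjusted p under 0.05 (92 higher and 106 lower) and none was called by edgeR or DESeq2.

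In 4 further families most members were not called, and calls were mostly higher. Of 150 F-box genes 24 rose and 1 fell, of 57 MATH and BATH domain genes 10 rose, and of 41 histone genes 13 rose while *hil-1*, a linker histone gene, fell from 3096 ± 120 to 2012 ± 176 (SD, n = 5). With the covariate 6 of the F-box, 6 of the MATH and BATH and 1 of the histone rises were called again. Of 69 hedgehog-related and patched-related genes 12 rose and 1 fell, and 1 of those rises was called again.

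Called genes were spread over all nuclear chromosomes, from 4.24% higher on chromosome I to 8.39% on chromosome V, which also had the highest share lower (3.71%). Some lay side by side. There were 40 runs of at least 3 neighbouring tested protein-coding genes called higher, with 141 genes, and 7 runs called lower, with 23 genes. A run of 6 on chromosome IV, 1550878 to 1567716, held *tag-244* and *hpo-6*, with log2 fold changes between 1.61 and 3.34 over the run. *hpo-6* itself went from 149 ± 16.7 to 644 ± 70.3 (SD, n = 5). The *dod-17* run, 12976303 to 12991843 on the same chromosome, ranged from 1.31 to 4.50, and *K10D11.2* in it held at most 2 reads in any no auxin library. The *clec-63* run on chromosome II, 12893062 to 12906644, ranged from 1.48 to 2.85.

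The ligand alone changed few genes. Without TIR1, 5 genes were called (0.0293%) by limma, with 835 at an unadjusted p under 0.05, and they were *cyp-35A1*, *irg-5*, *ugt-41* (0.75), *cyp-35C1* (0.67) and *col-41* (−1.68). These 5 were named after their values were seen where the lists do not name them. *col-41* went the other way in the TIR1 strain (1.28), and its difference of effects was called.

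The difference between the 2 ligand effects was tested in the same fit. It was called for 1151 genes (6.73%), 892 of them with the effect higher with TIR1 and 259 lower. Of the rises in the TIR1 strain 801 of 1130 had a called difference in the same direction, as did 200 of the 387 falls. Genes named above without a called difference include *fat-6* (0.73, adjusted p = 0.0586 from limma) and *asp-18* (−1.09, adjusted p = 0.198 from limma). For *daf-9* (0.48), *ftn-1* (−0.55), *atf-6* (−0.54) and *gst-38* (−0.48) the difference passed the adjusted p, short of 1.5-fold. The median log2 fold change of the rises was 1.39 with TIR1 and −0.11 without, and that of the falls −1.01 and −0.02, the members having been chosen on the first value of each pair. All 24 leading genes had a called difference. For *scl-12* the effects were −3.60 and −0.10, for *cpr-2* 5.45 and −0.66, and for *sod-3* −1.22 and 0.08, with a difference of −1.3 (adjusted p = 1.37e-07 from limma).

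**Figure D5:**
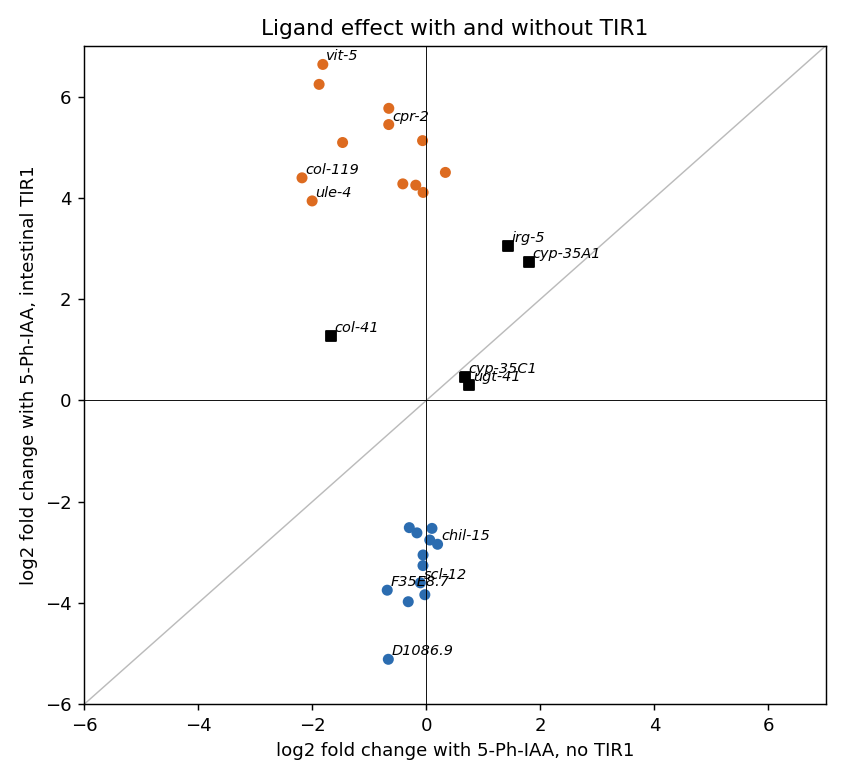
Log2 fold change with 5-Ph-IAA in the intestinal TIR1 strain (vertical axis) against that in the strain without TIR1 (horizontal axis), for the 12 largest rises (orange), the 12 largest falls (blue) and the 5 genes called without TIR1 (black squares). The grey line marks equal effects, and the 12 rises lie between −2.18 and 0.33 on the horizontal axis, while *cyp-35C1* and *ugt-41* are the black squares nearest to the line.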

How the data were processed

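RNA of whole dauers was sequenced by the authors as 75-base single-end reads after ribosomal RNA depletion. Per the labels and the study's methods, FastQC, Trimmomatic, STAR (WS284), featureCounts and DESeq2 were used, and versions and the strand setting are not given in the sources used here. The deposited values are a signal: normalized counts, that is reads divided by a DESeq2 size factor per library. They are whole multiples of 1 read for 100% of values (tolerance 0.01 reads), so reads were recovered for the count tests.

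Of 46925 genes, 17090 with a mean of at least 2 were tested with limma 3.58.1 (R 4.3.3) on log2(normalized count + 1), with 4 group means over 20 libraries, a mean-variance trend and Benjamini-Hochberg adjustment. A call needed an adjusted p under 0.05 and 1.5-fold. edgeR 4.0.16 on the recovered reads called 1121 higher and 355 lower, and DESeq2 1.42.0 called 1067 and 349. The script was tested on simulated data. Alternatives were other added counts, filters, scalings and cutoffs, each library left out, a replicate block, and the TIR1 strain alone.

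Members and the 73 lists were chosen with earlier results of these data known. Named were the 12 largest rises and 12 largest falls without overlap and with a mean of at least 20 in the higher group, up to 4 called genes per list and direction, and genes written out in the lists or named by the study for this experiment. Other named genes were chosen after their values were seen. Promoter motifs were not analysed here. Tables and figures were made with Python 3.11.15, pandas 2.3.3, numpy 2.4.6 and matplotlib 3.10.9.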

Additional observations from a re-analysis of the deposited data

Results flagged for a closer look

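Of 76 groups of 5 libraries examined, 12 held 1 library far from the other 4. The rule's rate of about 1 in 20 by chance is for independent groups of normally distributed values. These groups are of counts not on a log scale and share libraries and genes, so the 12 cannot be set against that rate. In the no auxin group replicate 5 was such a library for the summed oocyte markers (4475) and yolk genes (8287), and for *vit-1* (792), *vit-3* (288.4), *vit-5* (914.5), *col-119* (145.4), *perm-2* (64.1), *ule-4* (43.49) and *D1086.9* (1441). No auxin replicate 4 was such a library for *chil-22* (11.45). In the 5-Ph-IAA group replicate 5 stood apart for *scl-13* (599.6) and for the share of ribosomal RNA (21.43%).

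The ligand effect differed with and without TIR1, by the test of the difference, for 1151 genes, among them 24 of the 24 leading genes.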

How the results depend on the processing

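The 1517 calls in the TIR1 strain were 3237 without a fold cutoff, 944 at 2-fold and 681 (473 higher and 208 lower) with the oocyte marker covariate, which was added after the data were seen. With that covariate the calls of the difference went from 1151 to 491, and 8 named rises changed sign: *col-119* −0.38, *col-143* −0.79, *col-19* −0.57, *perm-2* −0.083, *perm-4* −0.47, *vit-1* −0.90, *vit-3* −1.05 and *vit-5* −0.45, none of them called. *perm-2* and *perm-4* are among the markers that make up the covariate, so their loss of call was fixed in advance. No named gene changed sign in a called value under any other setting tried. Leaving out 1 library gave 1368 to 1544 calls in the TIR1 strain, 4 to 7 for the ligand alone and 1002 to 1194 for the difference. Of 190 named genes, 1 to 6 lost their call in each such fit, and none changed direction. They were *acdh-8*, *asp-18*, *atf-6*, *elt-2*, *grd-4*, *gst-38*, *hsp-16.41*, *ins-33*, *mtl-1* and *scl-24*, while *fat-2* and *oma-1* gained one. Called in every leave-one-out fit were 856 of the 1130 rises and 244 of the 387 falls. Called in these fits and in every other refit without the covariate were 672 and 217.

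The 5 calls for the ligand alone became 12 with DESeq2 and 18 with the replicate block. The block gave 1610 calls in the TIR1 strain and 1297 for the difference. Deviations of same-numbered libraries in the TIR1 strain correlated between 0.039 and 0.1, and those of differently numbered libraries between −0.158 and 0.102. The main fit had no replicate term, and whether the numbers mark samples grown together was not tested. Depth limits genes of few reads, in particular in 5-Ph-IAA replicate 5.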
